A study of Mus musculus with 27 samples.

Results

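The transcripts described here are 308 of the 111462 mouse transcripts quantified in liver RNA, chosen by their measured TPM levels as higher after ischemia-reperfusion (IR) surgery than after sham surgery in both genotypes studied. Levels are given in TPM, a unit of relative transcript abundance that corrects for transcript length and sums to the same total in each library. A transcript was included if its lowest TPM in the 8 IR libraries was above its highest TPM in the 8 sham libraries. Its mean after IR also had to be at least 1.5 times its sham mean in each genotype and at least 2 TPM in each genotype, and its mean in knockout IR libraries had to be below 3 times that in wild-type IR libraries. The values that chose the transcripts are the same ones that show the response to IR, so all values of IR against sham below are a description and not a test.

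The study asked about ATP-citrate lyase (Acly) in liver injury. It sequenced RNA of liver tissue in 4 groups of 4 libraries: knockout livers after IR (KO IR), wild-type livers after IR (WT IR), knockout livers after sham surgery (KO sham) and wild-type livers after sham surgery (WT sham). The KO mice were Alb-cre:Aclyf/f, in which Cre is driven by the albumin promoter and removes the floxed part of Acly in hepatocytes, so other liver cells keep the gene. All livers were sampled 24 hours after surgery, from a region that the study names the broader zone. The labels do not say whether the WT mice carried floxed alleles or Cre, give no age or sex, and leave unstated whether each library is a separate animal. The treatment labels of the RNA libraries carry the names of the cell culture conditions, normoxia and hypoxia-reperfusion, whereas the titles say sham and IR, and groups were taken from the titles.

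In hepatic IR, blood flow to liver tissue is stopped and then restored. Hepatocytes are damaged by the lack of oxygen and again when it returns, neutrophils and monocytes enter the tissue, and surviving hepatocytes change the set of secreted and stress proteins they make. ACLY splits citrate into acetyl-CoA and oxaloacetate in the cytosol and the nucleus, and the acetyl-CoA is used to build fatty acids and sterols and to acetylate histones.

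The deposited tables name transcripts by Ensembl transcript identifier, and no table that pairs these identifiers with genes was used here, so 0 identifiers were matched to a gene name. The transcripts are therefore described by level, length and pattern, without gene roles. Several of the 308 may be isoforms of a single gene. The level of Acly RNA and the markers of hepatocytes and other liver cells were not analysed here, so neither the genotype labels nor the tissue label was checked on the RNA. In bulk tissue, more cells of a type that makes a transcript and more of that transcript per cell cannot be told apart. Total estimated counts per library ranged between 37787856 and 44597703, and no pair of libraries within a group agreed within sampling noise.

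The criterion of no overlap between IR and sham libraries was met by 729 transcripts, of which 479 also had both ratios, 445 of these stayed under the cap on the KO level, and 308 reached 2 TPM in both genotypes. The no-overlap criterion was the most selective, since 438 transcripts met every criterion but that one. The cap alone kept out 5 transcripts. At the border of no overlap, the 3 nearest transcripts inside had a lowest IR value 1.001, 1.003 and 1.003 times the highest sham value, and the 3 nearest outside had 0.9997, 0.9985 and 0.995 times. At the ratio border the smaller of both ratios was 1.501, 1.502 and 1.502 inside and 1.4995, 1.498 and 1.498 outside. At the cap the KO IR mean was 2.90, 2.84 and 2.82 times the WT IR mean inside, and 3.46, 3.98 and 5.97 times outside. At the level border the smaller IR mean was 2.02, 2.05 and 2.07 TPM inside and 1.99, 1.97 and 1.97 TPM outside.

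The transcripts made up a large and similar share of the RNA in injured livers of both genotypes. Their TPM summed to 9.14%, 11.05%, 9.27% and 10.04% of all TPM in KO IR libraries 1 to 4, and to 10.7%, 11.4%, 10.6% and 8.86% in WT IR libraries 1 to 4. In sham livers the share was 1.96%, 2.43%, 2.14% and 3.11% in KO libraries and 2.02%, 2.10%, 3.46% and 2.49% in WT libraries. The KO IR and WT IR ranges overlapped, as did the KO sham and WT sham ranges. The mean share after IR was 9.87 ± 0.877% in KO livers and 10.4 ± 1.097% in WT livers, and after sham surgery it was 2.41 ± 0.502% in KO livers and 2.52 ± 0.660% in WT livers (SD, n = 4 each).

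**Figure D1:**
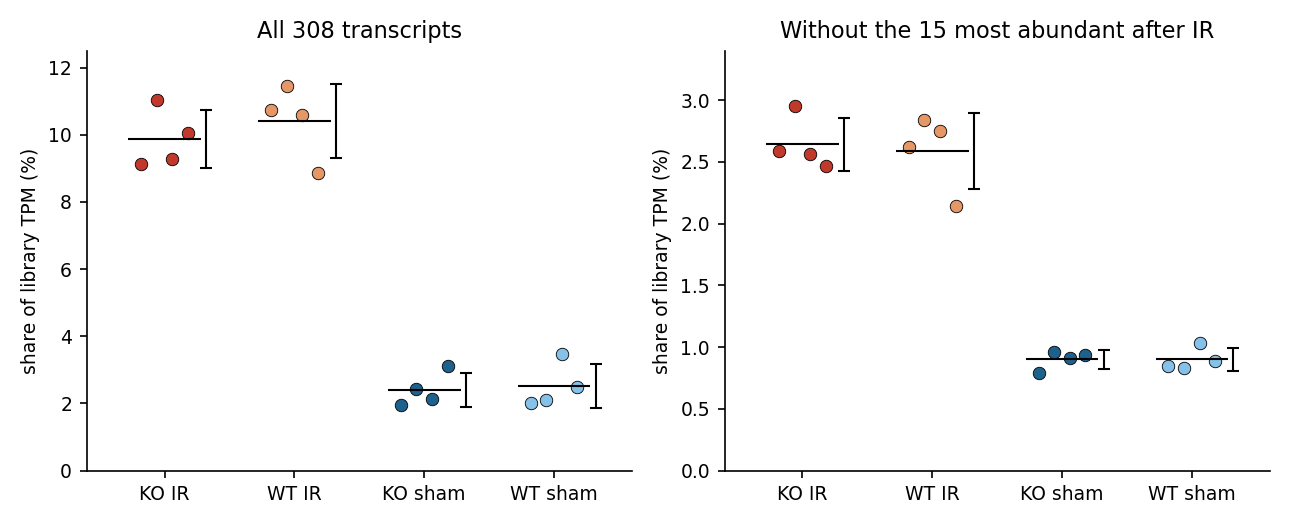
Share of each library's TPM held by the 308 transcripts, in percent, with 1 point per library and bars for the mean ± SD (n = 4 per group), for all 308 (left) and without the 15 most abundant after IR (right). In the left panel KO IR libraries sit between 9.14% and 11.05% and WT IR libraries between 8.86% and 11.4%, while the sham libraries sit between 1.96% and 3.46%.

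A few abundant transcripts carried most of this share. The 15 with the highest mean over the 8 IR libraries, between 2292 and 8355 TPM, held 74.2% of the summed IR level. Without those 15, the rest held 2.64% of TPM in KO livers and 2.59% in WT livers after IR, and 0.900% in each genotype after sham surgery. By mean IR level, 131 transcripts lay between 2 and 10 TPM and together held 0.692% of the sum, 122 lay between 10 and 100 TPM and held 3.76%, 33 lay between 100 and 1000 TPM and held 10.46%, and 22 were above 1000 TPM and held 85.1%. The median transcript had a mean after IR of 15.2 TPM in KO livers and 11.4 TPM in WT livers, and a sham mean of 5.25 TPM in KO livers and 5.17 TPM in WT livers. The share of a library therefore describes the most abundant members, and counts of transcripts describe the many low ones.

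Sizes of response were unequal among the 308. The ratio of the IR mean to the sham mean in TPM had a median of 2.53 in KO (quartiles 1.97 and 3.93) and 1.99 in WT (quartiles 1.67 and 3.03). Over all 11273 transcripts with both IR means of 2 TPM or more, the medians were 1.28 in KO and 1.07 in WT. Taking the smaller of both ratios for each of the 308, 165 lay between 1.5 and 2, 76 between 2 and 3, 37 between 3 and 5, 19 between 5 and 10, and 11 at 10 or more. The gap between the groups was often narrow: the lowest IR library was a median of 1.19 times the highest sham library, under 1.1 times in 92 transcripts and at least 2 times in 34. Nearly all were already detected after sham surgery, with 301 above 0 TPM in each of the 8 sham libraries. Of the other 7, 1 was listed at 0 in every KO sham library and 1 at 0 in every WT sham library.

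The median ratio was larger in the more abundant classes. The IR level sets both the class and the numerator of the ratio, so the 2 are linked by construction. The median of the smaller ratio was 2.41 in the 55 transcripts of 100 TPM or more after IR, 1.93 in the 122 between 10 and 100 TPM, and 1.80 in the 131 below 10 TPM. Transcripts with a smaller ratio of 3 or more numbered 20 of the 55, 21 of the 122 and 26 of the 131. Their share was thus lowest in the middle class and did not follow the order of the medians. Low transcripts of strong response were thus present as well. Because the level floor was set on the IR means, a transcript with a large ratio could enter with a sham level near 0, whereas one with a small ratio could not.

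**Figure D2:**
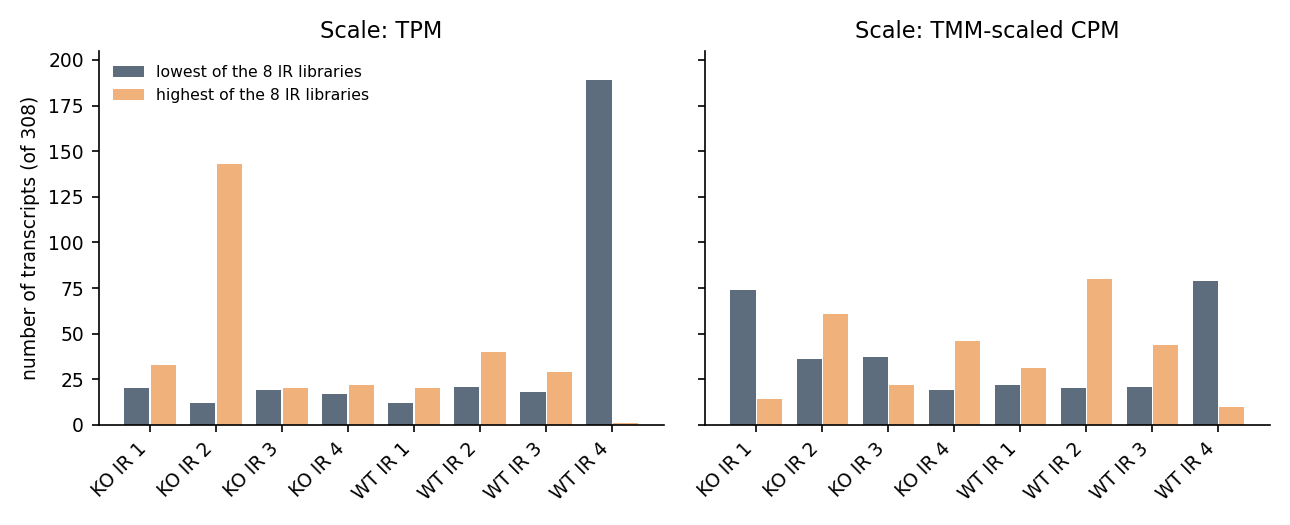
Number of the 308 transcripts for which each of the 8 IR libraries was the lowest and the highest, on TPM and on TMM-scaled counts (CPM). WT IR 4 was the lowest for 189 transcripts on TPM and for 79 after TMM scaling.

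One library had a strong hold on which transcripts were chosen. WT IR 4 was the lowest of the 8 IR libraries for 189 of the 308 (61.4%), and for 51.6% of all 11273 transcripts at 2 TPM or more. KO IR 2 was the highest for 143 (46.4%), and for 36.6% of the 11273. Applied without WT IR 4, the rule took 551 transcripts, among them 306 of the 308. Without WT sham 1 it took 420, among them 291 of the 308. Leaving out any other single library gave 297 to 337. After TMM scaling, which sets libraries to a common level from the bulk of transcripts, the lowest counts were spread more evenly: 79 of the 308 were lowest in WT IR 4 and 74 in KO IR 1. The libraries shown in the plot of lowest and highest libraries thus differed in scale as well as in these transcripts.

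The scale matters for every comparison of KO with WT after IR. On TPM, the median log2 ratio of the 308 to their sham mean was 1.25, 1.46, 1.20 and 1.19 in KO IR 1 to 4 and 1.09, 1.09, 1.04 and 0.73 in WT IR 1 to 4, and each KO library was above each WT library. Over the 11273 transcripts the same medians were 0.39, 0.44, 0.31 and 0.22 in KO IR and 0.18, 0.11, 0.15 and −0.10 in WT IR, so the order of genotypes was shared by transcripts at large. After TMM scaling the 308 had medians of 0.82, 0.99, 0.92 and 0.98 in KO IR and 0.93, 0.98, 0.92 and 0.81 in WT IR, and the genotypes overlapped. The TMM factors were 1.07 to 1.20 in KO IR, 0.922 to 1.02 in WT IR and 0.864 to 0.991 in sham libraries. Scaling by library totals alone moved the median of all 36041 tested transcripts to a log2 difference of 0.20 for KO against WT after IR and of 0.30 for IR against sham in KO, against −0.01 and 0.01 with TMM. KO IR libraries also had more transcripts at 1 TPM or more, 17417 to 19189, against 15928 to 17065 in WT IR. Values without TMM factors are given below for each named transcript whose call they changed.

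**Figure D3:**
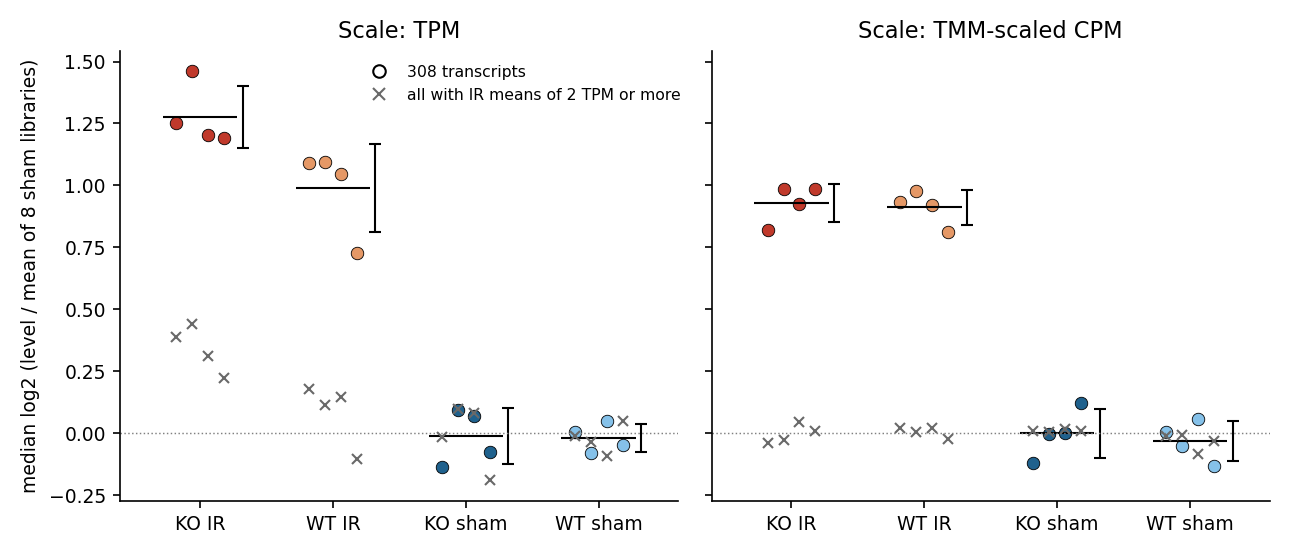
Median log2 ratio of the 308 transcripts to their mean over the 8 sham libraries, for each library, on TPM (left) and on TMM-scaled CPM, counts relative to library size (right), with circles for the 308, crosses for all transcripts with IR means of 2 TPM or more, and lines and bars for the mean ± SD of the circles (n = 4 per group). On TPM the KO IR circles (1.19 to 1.46) lie above the WT IR circles (0.73 to 1.09), and after TMM scaling the genotypes overlap.

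The count model compared IR with sham in each genotype, and since the rule used this contrast, its calls among the 308 are given only as counts. With edgeR's quasi-likelihood test at an adjusted p of 0.05 over 36041 transcripts, 240 of the 308 (77.9%) were called higher after IR in KO, where 5.84% of all tested transcripts were, and 228 (74.0%) in WT, where 1.42% were. Among the tested transcripts with IR means of 2 TPM or more, 10.6% were called higher in KO and 3.67% in WT. Fitted on the 2 groups compared alone, 232 of the 308 were called in KO and 126 in WT. In the fit over all 4 groups both genotypes called 197 of the 308, KO alone 43 and WT alone 31. The other 37 were called in neither although their libraries did not overlap. This split was not counted over all tested transcripts, and a call in 1 genotype alone does not show that the responses differed. The fitted log2 fold changes had a median of 0.96 in KO and 0.92 in WT. Among all tested transcripts 2.01% had every IR library above every sham library on TPM.

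The most abundant of the 308, ENSMUST00000075982.3, of 606 bases, had 5322, 4525, 6245 and 6685 TPM in KO IR and 10757, 12485, 10693 and 10125 TPM in WT IR. Its sham levels were 134, 12.2, 5.97 and 2023 TPM in KO and 7.86, 25.3, 1088 and 26.0 TPM in WT. KO sham 4 and WT sham 3 were far above the other 6 sham libraries, and every WT IR library was above every KO IR library. The IR means were 5694 ± 965 TPM in KO livers and 11015 ± 1020.4 TPM in WT livers, and the sham means 544 ± 988 TPM in KO livers and 287 ± 534 TPM in WT livers (SD, n = 4 each), which is 10.47 times the sham mean in KO and 38.4 times in WT. Each ratio rested on 1 sham library: without KO sham 4 it was 112 in KO, and without WT sham 3 it was 559 in WT. For KO against WT after IR, the log2 fold change was −1.18 with a standard error of 1.55 and an edgeR adjusted p of 0.801, in a model that gives each transcript a single dispersion over all 4 groups. Fitted on the KO IR and WT IR libraries alone, the edgeR adjusted p was 0.0185.

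The same pair of sham libraries stood apart for other members. KO sham 4 and WT sham 3 held 3.11% and 3.46% of their TPM in the 308, against 1.96% to 2.49% in the other 6 sham libraries. Without the 15 most abundant after IR, these shares were 0.934% and 1.04%, against 0.789% to 0.962% in the other 6. For each sham library, members at 1 TPM or more and at 3 or more times the median of the other 7 sham libraries were counted. There were 13 in KO sham 4 and 14 in WT sham 3, with 11 of them in both. In each of these 2 libraries, 5 of them were among the 15 most abundant after IR. In each of the other 6 sham libraries there were 1 to 4. These counts were not made over all transcripts, so they are not shown to be particular to the 308. Without these 2 libraries the rule took 341 transcripts, 292 of them among the 308. What sets the 2 libraries apart was not tested.

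ENSMUST00000147219.1, of 1374 bases, had the largest response by the smaller of both ratios. It was at 5.79, 32.04, 8.42 and 11.4 TPM in KO IR and 6.87, 10.9, 10.1 and 7.20 TPM in WT IR. In sham livers it was at 0.129, 0, 0 and 0.405 TPM in KO and 0, 0, 0.262 and 0.123 TPM in WT. It was thus nearly absent after sham surgery, with estimated counts that summed over the 4 libraries to 2645 in KO IR and 1902 in WT IR, and to 30 in KO sham and 20 in WT sham. The IR mean was 108 times the sham mean in KO and 91.3 times in WT. Single libraries moved these ratios, to 63.9 in KO without KO IR 2, to 336 in KO without KO sham 4 and to 215 in WT without WT sham 3. After IR the genotypes overlapped, and the log2 fold change of KO against WT was 0.41 with an edgeR adjusted p of 0.862. Without KO IR 2 it was −0.24.

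**Figure D4:**
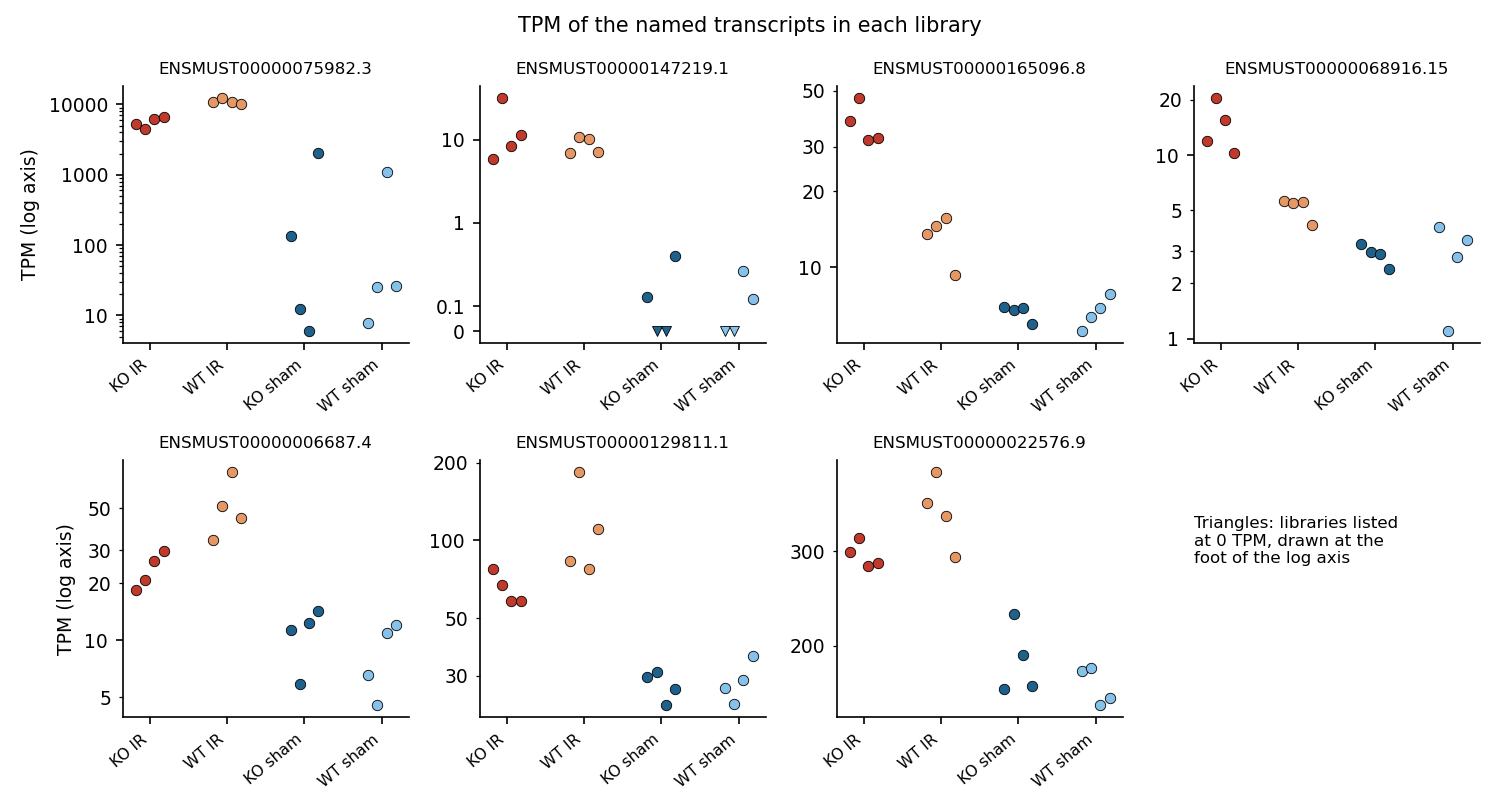
TPM of the 7 named transcripts in each of the 16 libraries, 1 point per library, on log axes that differ between panels, with triangles for libraries listed at 0. ENSMUST00000165096.8 and ENSMUST00000068916.15 were higher in KO IR than in WT IR without overlap, and for ENSMUST00000075982.3 KO sham 4 and WT sham 3 lie far above the other sham libraries.

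On TPM, 243 of the 308 had KO IR and WT IR means within 1.5 times of each other. Another 57 were at least 1.5 times higher in KO and 8 at least 1.5 times higher in WT. These counts were not made over the 11273, and the rule itself bounds the difference. Closeness after IR is therefore not shown to be particular to the 308. The KO mean was the higher for 230 (74.7%), and for 77.0% of the 11273 transcripts at 2 TPM or more. The median ratio of KO to WT was 1.18 in both sets. After TMM scaling, KO was the higher for 145 of the 308, with a median log2 fold change of −0.03 (quartiles −0.27 and 0.21), against −0.01 over all tested transcripts. In the same model without TMM factors KO was the higher for 215. The median of all tested transcripts moved with the scale in the same way, so these counts describe the scale as well as the 308. Every KO IR library was above every WT IR library for 76 of the 308 on TPM, where 15.8% of all tested transcripts were, and for 37 after TMM scaling, where 7.4% were. The reverse held for 11 on TPM, against 2.13% of all tested transcripts, and for 43 after TMM scaling, against 6.57%. Only 11252 of the 36041 tested transcripts had IR means of 2 TPM or more, the level every member had to reach. Shares without overlap were not counted at that level, so no excess among the 308 is shown.

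A minority differed between genotypes after IR by the test across all transcripts. The edgeR quasi-likelihood test at an adjusted p of 0.05 called 27 of the 308, of which 16 were higher in KO (5.19%, against 2.22% of all tested transcripts) and 11 lower in KO (3.57%, against 1.78%). Among the tested transcripts with IR means of 2 TPM or more, 3.32% were called higher and 4.15% lower, so the lower calls were no more frequent among the 308 than at that level. The rule bounds these differences on both sides, since the cap limits how much higher a member could be in KO, and the KO ratio, the lack of overlap and the level floor limit how much lower. The split of the calls moved with scaling, to 41 higher and 4 lower without TMM factors and to 16 higher and 8 lower with RLE size factors in edgeR. Without TMM factors the median log2 difference of all tested transcripts was 0.20. With DESeq2, which differs in its model and test as well, 26 of the 308 were higher and 16 lower. Shares of all tested transcripts called under these settings are not given here. Without KO IR 2 the count of calls among the 308 was 14, without WT IR 2 it was 17, and without WT IR 3 or WT IR 4 it was 15 each.

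The 16 higher in KO had log2 fold changes between 0.41 and 1.22 with a median of 0.82. Their median level over the IR libraries was 19.6 TPM, with a range of 6.27 to 646 TPM. The median ratio of IR to sham was 3.86 in KO and 1.81 in WT. Every KO IR library was above every WT IR library for all 16 on TPM (of all tested, 15.8%) and for 15 after TMM scaling (of all tested, 7.4%). The 16 were called on these same libraries, so this lack of overlap and the higher KO ratio follow largely from the call. The sham means of KO and WT were within 1.5 times of each other for all 16.

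Of the 11 lower in KO, log2 fold changes lay between −1.36 and −0.34 with a median of −0.56. Their median IR level was 89.6 TPM, with a range of 24.5 to 1993 TPM. The median ratio of IR to sham was 1.94 in KO and 2.13 in WT. Every KO IR library was below every WT IR library for 4 of the 11 on TPM (of all tested, 2.13%). After TMM scaling, the scale on which they were called, this held for all 11 (of all tested, 6.57%). This lack of overlap and the lower KO ratio likewise follow largely from the call. By level, 3 were called higher and 0 lower among the 131 below 10 TPM, where 2.06% of all tested transcripts of that level were higher and 1.94% lower. Between 10 and 100 TPM, 11 of the 122 (9.02%) were higher and 7 (5.74%) lower, against 5.16% and 6.45% at that level. At 100 TPM or more, 2 of the 55 (3.64%) were higher and 4 (7.27%) lower, against 6.61% and 14.3%. Differences between these classes were not tested.

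**Figure D5:**
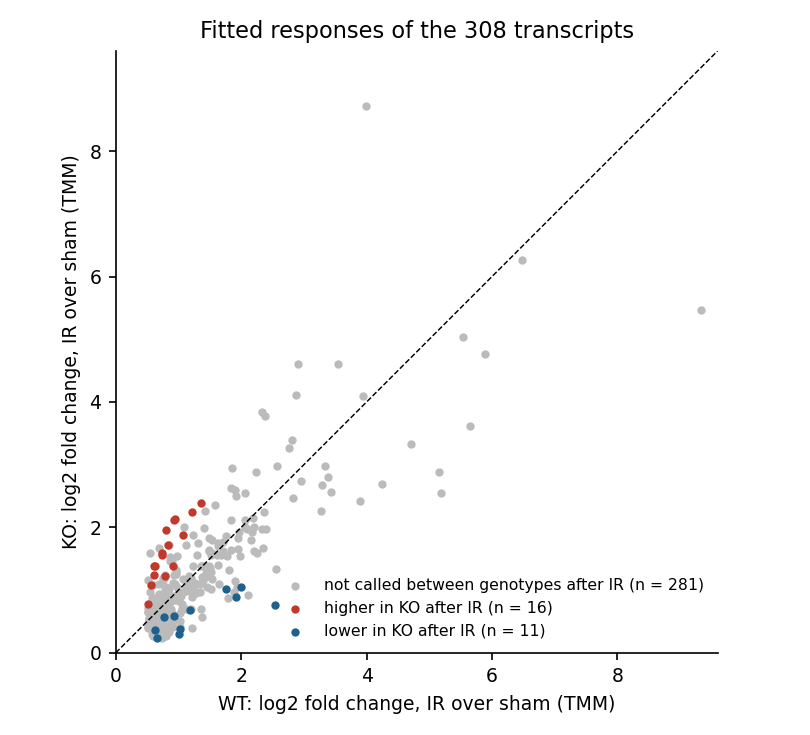
Fitted log2 fold change of IR over sham in KO (vertical axis) against WT (horizontal axis) for the 308 transcripts, from the TMM-scaled edgeR model, with the dashed line at equal responses. The 281 transcripts not called between genotypes after IR lie on both sides of the line; the side of the 16 called higher and the 11 called lower in KO follows largely from the values they were called on.

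ENSMUST00000165096.8, of 2837 bases, had the largest fold change among the 16. It was at 38.03, 46.96, 31.8 and 32.5 TPM in KO IR and at 13.6, 14.6, 15.6 and 9.31 TPM in WT IR. In sham livers it was at 6.94, 6.79, 6.91 and 5.95 TPM in KO and at 5.58, 6.32, 6.88 and 7.84 TPM in WT. All KO IR libraries were above all WT IR libraries, while the sham groups overlapped and had almost the same mean, 6.65 ± 0.468 TPM in KO and 6.65 ± 0.951 TPM in WT (SD, n = 4 each). The IR means were 37.3 ± 7.00 TPM in KO and 13.3 ± 2.77 TPM in WT, a TPM ratio of 2.81 that lies close to the cap of 3. The log2 fold change of KO against WT after IR was 1.22 with a standard error of 0.12 and an edgeR adjusted p of 0.000357, and the call held in each of the 23 alternatives tried, between 8.73e-19 and 0.0106.

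ENSMUST00000068916.15, of 1483 bases, came next with 11.9, 20.5, 15.6 and 10.2 TPM in KO IR and 5.60, 5.51, 5.53 and 4.14 TPM in WT IR. In sham livers it was at 3.27, 2.98, 2.88 and 2.40 TPM in KO and 4.08, 1.099, 2.77 and 3.45 TPM in WT. The groups did not overlap after IR and overlapped after sham, and WT IR 4 was only 1.02 times the highest sham library, WT sham 1. The log2 fold change of KO against WT after IR was 1.21 with a standard error of 0.28 and an edgeR adjusted p of 0.0276. The call was lost without KO IR 2, without KO IR 3 and without each of WT IR 1 to 4, where the edgeR adjusted p was 0.0596 to 0.108, and was 0.0616 with the replicate block.

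The transcript with the largest fall in KO was ENSMUST00000006687.4, of 773 bases. Its levels were 18.5, 20.7, 26.3 and 29.8 TPM in KO IR and 33.7, 51.1, 77.7 and 44.6 TPM in WT IR. In sham livers they were 11.4, 5.91, 12.3 and 14.2 TPM in KO and 6.58, 4.53, 11.002 and 12.04 TPM in WT. Every KO IR library was below every WT IR library, and the sham groups overlapped. The log2 fold change was −1.36 with a standard error of 0.36 and an edgeR adjusted p of 0.0494, just inside the threshold, and it was lost in 15 of 23 alternatives, with 0.0536 without TMM factors and an adjusted p of 0.0501 to 0.170 in those of them that left out 1 library.

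ENSMUST00000129811.1, of 436 bases, was at 77.5, 67.2, 58.3 and 58.4 TPM in KO IR and at 83.0, 184, 77.5 and 111 TPM in WT IR. In sham livers it was at 29.7, 31.0, 23.03 and 26.6 TPM in KO and 26.9, 23.4, 29.0 and 35.6 TPM in WT. KO IR 1 and WT IR 3 had the same level at this precision, WT IR 2 was far the highest, and the sham groups overlapped. The log2 fold change of KO against WT after IR was −1.05 with a standard error of 0.23 and an edgeR adjusted p of 0.0190. Without KO IR 2, KO IR 4 or WT IR 4 the edgeR adjusted p was between 0.0501 and 0.0707, and fitted on the KO IR and WT IR libraries alone it was 0.0745.

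After sham surgery no difference between the genotypes passed the test on these transcripts. Of the 308, 0 were called between KO and WT by edgeR and by DESeq2, and 19 (6.17%) had an unadjusted p under 0.05, against 3.68% of all tested transcripts. Over all tested transcripts 0.00832% were called. The KO sham and WT sham means were within 1.5 times of each other for 289 of the 308, a count not made over all tested transcripts. The median log2 fold change was 0.02. On TPM, 4 transcripts (of all tested, 0.863%) had every KO sham library above every WT sham library and 1 (of all tested, 1.08%) had every KO sham library below. With 4 libraries per group a small difference could be missed, and no difference was shown to be absent.

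Whether the response to IR itself differed between genotypes was tested as the genotype by IR interaction, the KO response minus the WT response. The rule had already acted on the values compared here. It set a floor on the ratio of IR to sham in each genotype, barred overlap and capped the KO IR level. A member with little or no response in either genotype could therefore not enter. The other transcripts were not chosen in this way, so shares of the 308 set against them below describe the rule as well. On TPM the ratio of IR to sham was larger in KO for 234 of the 308 (75.97%), and for 74.3% of the 11273 transcripts at 2 TPM or more. In the TMM-scaled model the response was larger in KO for 126 of the 308 (40.9%), and for 44.7% of the tested transcripts at that level. The ratio on TPM differed by more than 2 times between genotypes in 32 of the 308, of which 25 had the larger ratio in KO and 7 in WT. This count was not made over the 11273, where 74.3% also had the larger TPM ratio in KO, so it is not shown to be particular to the 308. In the edgeR model the median interaction was −0.06 on the log2 scale. The test called 1 of the 308 higher (0.325%, against 0.144% of all tested transcripts) and 1 lower (0.325%, against 0.186%). Among the tested transcripts with IR means of 2 TPM or more, 0.276% were called higher and 0.489% lower. Without TMM factors 6 of the 308 were called higher and 0 lower, and with DESeq2 9 were higher and 8 lower. Shares of all tested transcripts called under these settings are not given here, so the counts are not shown to be particular to the 308. The median interaction of all tested transcripts was 0.25 without TMM factors. At an unadjusted p under 0.05 there were 46 (14.9%), against 10.95% of all tested transcripts.

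The transcript with a larger response in KO was ENSMUST00000165096.8, with an interaction of 1.19 on the log2 scale, a standard error of 0.17 and an edgeR adjusted p of 0.0116. It was called in each of the 22 alternatives tried, with an adjusted p between 3.43e-08 and 0.0400. Its ratio of IR to sham was 5.61 in KO and 1.99 in WT.

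ENSMUST00000022576.9, of 1477 bases, was the transcript with a smaller response in KO. It was at 299.7, 318, 281 and 285 TPM in KO IR and 369.7, 422, 350.02 and 293 TPM in WT IR, and at 166, 229.6, 192 and 168 TPM in KO sham and 179.6, 182, 155 and 159.9 TPM in WT sham. On TPM the genotypes overlapped after either surgery. After TMM scaling every KO IR library was below every WT IR library, as for all 11 called lower in KO after IR. The IR mean was 1.57 times the sham mean in KO and 2.12 times in WT. The interaction was −0.72 on the log2 scale with a standard error of 0.14 and an edgeR adjusted p of 0.0415, and the call was lost in 17 of 22 alternatives, with 0.153 without TMM factors, among them 14 of the 16 that left out 1 library. For KO against WT after IR the log2 fold change was −0.54 with a standard error of 0.10 and an edgeR adjusted p of 0.00748, and 0.0768 without TMM factors.

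Lengths, which the rule did not use, had a median close to that of all transcripts above the level floor. The 308 had a median length of 1876.5 bases (quartiles 1139 and 3349), against 1767 bases (quartiles 873 and 2942) for all 11273 with IR means of 2 TPM or more. Transcripts under 1000 bases made up 23.4% of the 308 and 29.6% of the 11273, and those over 3000 bases 29.9% and 24.1%. Within the 308, the 72 under 1000 bases had a median smaller ratio of 2.61 and a median IR level of 15.7 TPM, and the 92 over 3000 bases had 1.80 and 11.6 TPM. Replicate spread was somewhat wider than at large: the median coefficient of variation of the 308 after IR was 16.8% in KO and 16.3% in WT, against 15.2% in KO and 15.1% in WT for the 11273. After sham surgery it was 18.1% in KO and 20.8% in WT, against 15.97% in KO and 18.6% in WT.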

How the data were processed

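RNA of 16 mouse liver libraries was analysed. The 11 CUT&RUN samples, of which 8 have peak lists, were not used here. Per the file headers, the authors deposited for each transcript a length, an effective length, an estimated count and a TPM value from kallisto. Per the submitters' processing notes, the tools were Trimmomatic and kallisto and the build was mm10, and versions are not given in the sources used here. How kallisto divides reads among isoforms bears on every transcript level.

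The rule was applied to the deposited TPM. Estimated counts were rounded to whole numbers and filtered with filterByExpr by group, which left 36041 transcripts, all 308 included. The fit over all libraries was a robust quasi-likelihood model with group coefficients, which leaves 12 residual degrees of freedom, after TMM scaling. It used edgeR version 4.0.16 under R version 4.3.3 and limma version 3.58.1. Benjamini-Hochberg adjustment ran over all 36041 within each of 5 comparisons, with a threshold of 0.05. Standard errors are the size of the log2 fold change divided by the square root of F. The script was tested on simulated data. Alternatives were DESeq2 1.42.0, other scalings and filters, a replicate block and leaving out each library.

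The members and the lists were chosen with earlier results of these data known. Named are the most abundant member, the one with the largest smaller ratio, and the largest fold changes among members called between genotypes or in the interaction, at most 2 per direction. The planned rule named more, but was reduced because identifiers were not paired with genes. For the same reason sums per gene, gene lists and peak shares, all planned, were not run. P-values measure the spread between libraries, which may be technical. No sequence was printed.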

Additional observations from a re-analysis of the deposited data

Results flagged for a closer look

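In 36 groups of 4 libraries, the highest or lowest library was compared with the rest, and 5 groups held a library far from the others. Chance alone gives about 1 in 20 such groups. WT IR 4 was low for the whole set, with a median log2 ratio to the sham mean of 0.73 on TPM, and for ENSMUST00000068916.15, with 4.14 TPM. KO sham 4 was high for ENSMUST00000075982.3, with 2023 TPM, and low for ENSMUST00000165096.8, with 5.95 TPM. Of the 11273 transcripts at 2 TPM or more, 58.0% were lowest of their group in KO sham 4 and 63.5% in WT IR 4. The low values of these libraries on TPM thus describe the scale as well as the transcripts. WT sham 3 was high for ENSMUST00000075982.3, with 1088 TPM.

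The response to IR differed between genotypes by the edgeR interaction test for 2 transcripts. ENSMUST00000165096.8 had a larger response in KO, by 1.19 on the log2 scale. ENSMUST00000022576.9 had a smaller response in KO, with an interaction of −0.72 on the log2 scale, and this call was lost in 17 of 22 alternatives.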

How the results depend on the processing

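The rule took 308 transcripts, and 143 with both ratios of at least 2. Leaving out 1 library gave 297 to 551, the highest without WT IR 4. On CPM it took 287 (library totals) and 206 (TMM), of which 272 and 186 were among the 308. Members called between KO and WT after IR numbered 27, but 45 without TMM factors and 42 with DESeq2, and 14 to 29 when 1 library was left out. Interaction calls numbered 2, but 6 without TMM factors, 1 without a filter, 9 with at least 10 CPM in 4 libraries (where 230 of the 308 were tested), 1 with the replicate block and 17 with DESeq2, and 1 to 5 when 1 library was left out. Calls for IR against sham in WT numbered 228, but 126 with only those libraries fitted, where KO had 232 against 240. KO was the higher genotype after IR for 145 members, but for 230 on TPM means. Shares of all tested transcripts called under these other settings are not given, and the cause of these changes was not tested. The other settings kept counts within 1.5 times of the reported ones, and after sham surgery the count was 0 in all 23 alternatives. Scaling by library totals alone, the count on TPM, leaving out KO sham 4 with WT sham 3, and the ratios of named transcripts without single libraries, were chosen after seeing the data. The replicate numbers did not pair the samples: over 24 pairs of same-numbered libraries the correlation of deviations ran between −0.113 and 0.0842, and 1 of 16 libraries correlated best with its own number. With the replicate block 21 members were called between KO and WT after IR. With 4 libraries per group small differences are hard to detect.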
